A study of Mus musculus with 10 samples.

Results

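PRDM14 peaks were examined around 3 genes of the primitive endoderm, Gata6, Gata4 and Pdgfra, in mouse embryonic stem (ES) cells. A peak was counted for a gene when its peak position lay within 100 kb of the gene span given with the rule (mm9, to the nearest kb). By this rule 4 of the 3608 peaks in the deposited list belonged to these genes, 2 of them to Gata4, 1 to Gata6 and 1 to Pdgfra. The peaks came from chromatin immunoprecipitation with sequencing of C57BL/6 ES cells that lacked Prdm14 (Prdm14-/-) and had been rescued with AVI-EGFP-Prdm14, using an antibody to GFP. The bound protein was thus a tagged fusion re-expressed in knockout cells and not the endogenous one, and the labels do not say whether the rescued cells were 1 clone. The series holds 10 libraries, 1 for each group, and the remaining 9 were not analysed here: the GFP immunoprecipitation of Prdm14-/- cells rescued by EGFP alone, the inputs, and the H3K27me3 and SUZ12 libraries of Prdm14+/+ and Prdm14-/- cells. No replicate, control level or total read depth is therefore set beside the values, and no difference between peaks was tested. The peak list carries no expression values, so the ES cell identity of the sample could not be checked against marker genes.

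The primitive endoderm is the extraembryonic layer that arises beside the epiblast in the blastocyst and goes on to form the yolk sac endoderm. FGF signalling through the MAPK pathway favours this fate, and the zinc finger factor GATA6 is among the first regulators to mark it. GATA4 follows as a second GATA factor of the lineage, and PDGFRA, a receptor tyrosine kinase for platelet-derived growth factor, is an early surface marker of it. ES cells correspond to the epiblast side of that choice and keep these genes low. PRDM14 is a PR-domain zinc finger protein known to hold ES cells in the pluripotent state and away from extraembryonic endoderm. The comparison asked where its binding sites lie with respect to these genes and how strong they are within the list.

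PRDM14 was found at the end of the Gata4 span and at a distance from Gata6 and Pdgfra. Only Gata4 had a peak at its span, and the interval of this peak ran across the end of the span as given. The single Gata6 peak lay 45.6 kb before the gene and the single Pdgfra peak 66.9 kb before it, and neither gene span contained a peak. All 4 peaks were in the lower and middle range of the list by height. Their heights ran from 68 to 116 reads, whereas the list ran from 45 to 1226 reads with a median of 83 reads. Height is the authors' maximum of the immunoprecipitation in the peak, a whole number taken here as a pileup of reads. The authors' enrichment of the 4 peaks ran from 25.6 to 89.0, against a list median of 55.8 and a highest value of 830.3.

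**Figure D1:**
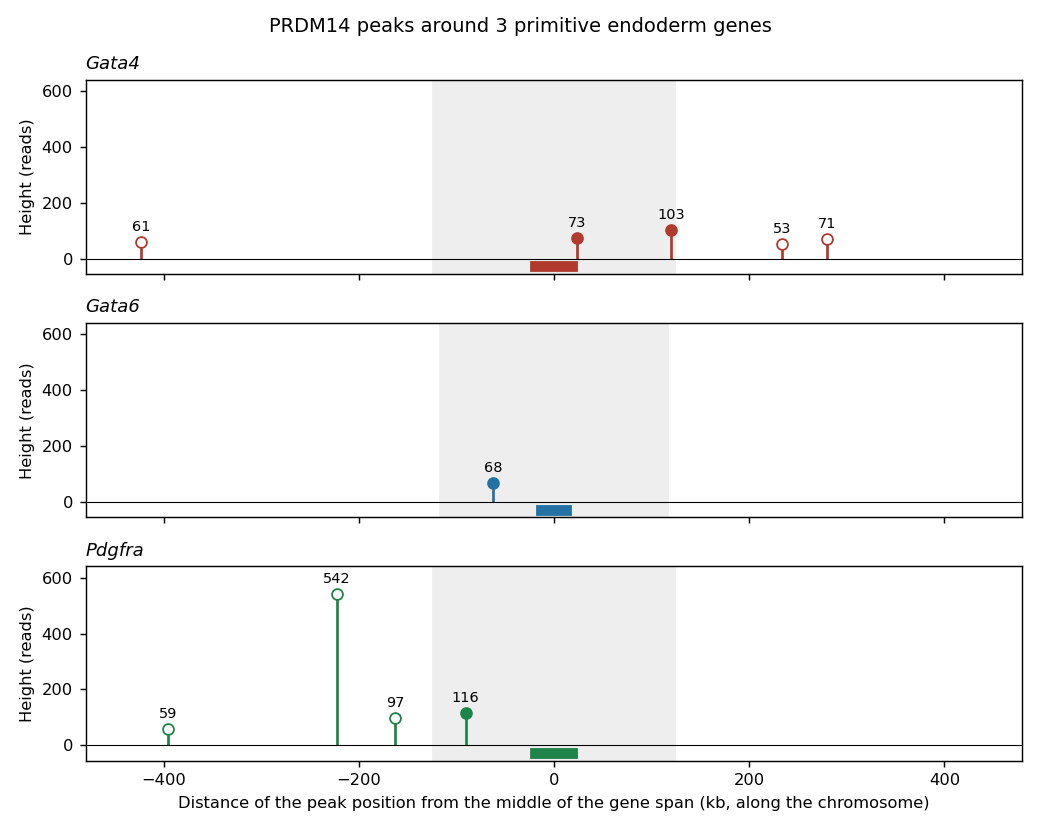
PRDM14 peaks around Gata4, Gata6 and Pdgfra, with the distance of the peak position from the middle of the gene span in kb on the horizontal axis and the peak height in reads on the vertical axis. Coloured blocks are the gene spans, grey areas reach 100 kb beyond them, filled circles are the peaks counted for each gene and open circles are other peaks nearby. Gata4 has peaks of 73 and 103 reads, Gata6 has 1 of 68 reads, Pdgfra has 1 of 116 reads, and the tallest peak drawn (542 reads) lies outside the grey area of Pdgfra.

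Gata6 (gene ID 14465, chromosome 18, span 11052 to 11086 kb) had 1 peak, at 11006050 to 11006909. Its peak position, 11006405, lay 45.6 kb before the start of the span. From general knowledge, and not from the tables used here, Gata6 is transcribed toward increasing coordinates, which would put the peak on its 5′ side. Its height was 68 reads, and 33.1% of the 3608 peaks were lower. The enrichment was 25.6, and 16.0% of peaks had a lower value, which made it the least enriched of the 4. The width was 859 bp, against a list median of 809 bp. The peak also stood alone: the next peak was 545.4 kb away on the side away from the gene and 639.1 kb away across it. The distance to the nearest other peak was longer than for 84.9% of peaks in the list, whose median was 105160 bp. Mib1 and Rbbp8 are the protein-coding genes on the 2 sides of Gata6 in the GRCm38 gene order.

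Gata4 (gene ID 14463, chromosome 14, span 63817 to 63865 kb) had 2 peaks. The first, at 63864480 to 63865199, had its position at 63864835, which is 165 bp before the end of the span. Since the span is given to the nearest kb, this places the peak within about 1 kb of the end of that span, and whether it lies inside the gene cannot be said. It is called the peak at the gene end below, after the span used here and not after a gene model. From general knowledge of the gene, and not from the tables used here, mouse Gata4 is transcribed toward decreasing coordinates, which would make this end the 5′ end of the gene as the span gives it. The height was 73 reads, below the list median of 83 reads, and 39.2% of peaks were lower. The enrichment was 89.0, the highest of the 4, and 75.8% of peaks had a lower value. The width of 719 bp was the narrowest of the 4.

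The second Gata4 peak, at 63960960 to 63961909, had its position at 63961155, or 96.2 kb beyond the same end and thus near the limit of 100 kb. It was taller than the first, with 103 reads against 73, a ratio of 1.41. Its enrichment was lower, 46.3 against 89.0, a ratio of 1.92 in favour of the peak at the gene end. Of all peaks, 62.4% were lower in height and 40.6% lower in enrichment. The highest pileup lay toward 1 side of the interval, 195 bp from the start of its 949 bp, or at 20.5% of the width. In the list, 2.69% had the position nearer the start in this sense, and the quartiles were 40.7% and 58.7%. The start is only the lower coordinate, and peaks as far toward the other end were not counted in this share. The other 3 peaks had their positions at 41.3% to 49.4% of the width.

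No other peak lay between the 2 Gata4 peaks, which were 96.3 kb apart. On the far side of the gene from them, the next peak was 399.4 kb before the span. The gene model matters for these distances. The RefSeq entry of Gata4 on GRCm38.p6 covers 72799 bases, whereas the span used here is 48 kb, so a longer model would have another end. For Gata6 the RefSeq length was 33127 bases and for Pdgfra 46885 bases, against spans of 34 and 47 kb. Exons, introns and untranslated regions are not named at any peak, because the annotation at hand is of another build than the peaks. Neil2 and Blk are the protein-coding genes that adjoin Gata4 in the GRCm38 order.

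Pdgfra (gene ID 18595, chromosome 5, span 75548 to 75595 kb) had 1 peak, at 75480430 to 75481769. Its position, 75481065, lay 66.9 kb before the start of the span. This is the 5′ side of the gene, which the promoter annotation at hand places on the plus strand. The height was 116 reads, the highest of the 4, and 68.4% of peaks were lower. The enrichment of 54.2 was close to the list median of 55.8, and 48.5% of peaks had a lower value. The width of 1339 bp was the largest of the 4 and exceeded 95.3% of the list. On the GRCm38 gene order Gsx2 is the protein-coding gene before Pdgfra and Kit the one after it. The distance of the peak from Gsx2 was not measured, since Gsx2 has no mm9 span here.

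The peaks near Pdgfra were all on its 5′ side. Beyond the limit of 100 kb, a peak of 97 reads and an enrichment of 25.5 lay 139.0 kb before the span (75408690 to 75409509). A much stronger one lay 198.7 kb before it, at 75348450 to 75349719, with 542 reads and an enrichment of 366.3. It was at rank 78 of 3608 by height and at rank 32 by enrichment. On the other side of Pdgfra the first peak was 1.12 Mb past the end of the span. The stretch without a peak that holds the gene was 1.23 Mb long, and 16.6% of the 3588 stretches between neighbouring peaks were longer. The median stretch was 282.3 kb. Longer stretches hold more of the genome, so one picked for holding a gene tends to exceed this median. Spans of 47 kb laid along the chromosomes had a median distance of 358.3 kb to their nearest peak, against 66.9 kb for Pdgfra.

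The values nearest the limit of 100 kb were those of Gata4 and Pdgfra. Just inside was the Gata4 peak at 96.2 kb with 103 reads. The nearest one outside was farther from the limit, the Pdgfra peak at 139.0 kb with 97 reads. The next one out near Gata4 was 209.8 kb past its end, with 53 reads and an enrichment of 14.9. The nearest peaks beyond the limit around Gata6 were 591.0 kb before it, with 537 reads, and 559.5 kb after it, with 107 reads. None of the 4 peaks had another peak within 10 kb, the smallest distance to a neighbour being 72.0 kb (Pdgfra). In the list the first quartile of this distance was 24735 bp, so most peaks had no neighbour within 10 kb either. Of all peaks, 43.1% had a nearer neighbour than the Pdgfra peak and 48.5% a nearer one than either Gata4 peak.

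Height and enrichment ordered the 4 peaks differently. By height the order was Pdgfra (116 reads), the distal Gata4 peak (103 reads), the Gata4 peak at the gene end (73 reads) and Gata6 (68 reads). By enrichment it was the Gata4 peak at the gene end (89.0), Pdgfra (54.2), the distal Gata4 peak (46.3) and Gata6 (25.6). Gata6 was last in both. Without replicates it cannot be said which neighbours in these orders differ beyond error. A factor was taken for each chromosome from this list, as the largest quotient of enrichment and height among its peaks. It was 1.22 on chromosome 14, 1.24 on chromosome 18 and 1.18 on chromosome 5. Divided by this factor, the enrichments were 73 and 38 at Gata4, 20.7 at Gata6 and 46 at Pdgfra, in the same order.

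For the peak at the end of Gata4, the enrichment divided by the factor equalled the height, 73. Of all peaks, 231 showed this equality (within 0.001 percentage points of the height). By the construction of the factor it marks the highest quotient of enrichment and height found on a chromosome, so every chromosome has such a peak. At the other 3 peaks the enrichment divided by the factor was 30.4% (Gata6), 36.9% (distal Gata4) and 39.7% (Pdgfra) of the height, against a list median of 48.7%. The control reads behind the enrichment are not part of the table, so this share is given as the table shows it.

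**Figure D2:**
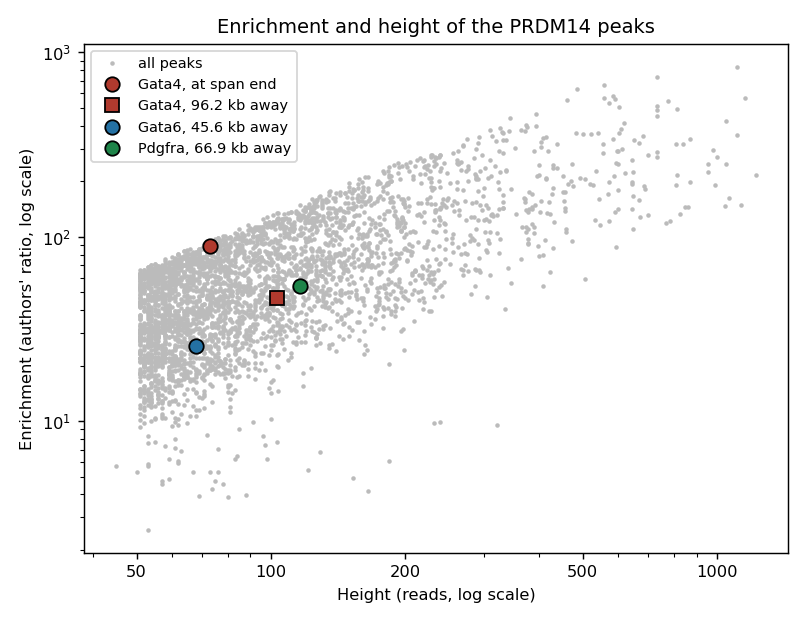
Authors' enrichment (log scale) against height in reads (log scale) for all 3608 PRDM14 peaks, in grey, and the 4 peaks near Gata4, Gata6 and Pdgfra, in colour. The Gata4 peak at the end of the gene span (73 reads, enrichment 89.0) lies on the upper edge of the cloud, and the Gata6 peak (68 reads, enrichment 25.6) lies in its lower part.

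Set beside peaks whose height was within 10% of their own, the 4 differed in enrichment and width. The Gata4 peak at the gene end had an enrichment above 95.6% of the 643 such peaks, whose median was 45.0. Its quotient of enrichment and height was the highest found on its chromosome. A high place among peaks of like height follows from that and is not a separate result. The Gata6 peak was above 24.6% of 613 peaks, just below their first quartile (25.6 against 25.8). The distal Gata4 peak was above 32.9% of 392 and the Pdgfra peak above 32.6% of 347. These last peaks were below the median but between the quartiles for their heights, 41.9 to 98.7 for distal Gata4 and 45.7 to 110.9 for Pdgfra. In width the order was another. The Pdgfra peak, at 1339 bp, was wider than 97.1% of the peaks of like height, whose median was 909 bp with quartiles of 839 and 979 bp. Only 10 of these 347 peaks were as wide or wider, the Pdgfra peak included. The Gata6 peak was wider than 88.7% and the distal Gata4 peak wider than 71.2% of theirs, whereas the Gata4 peak at the gene end was wider than 16.2%.

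**Figure D3:**
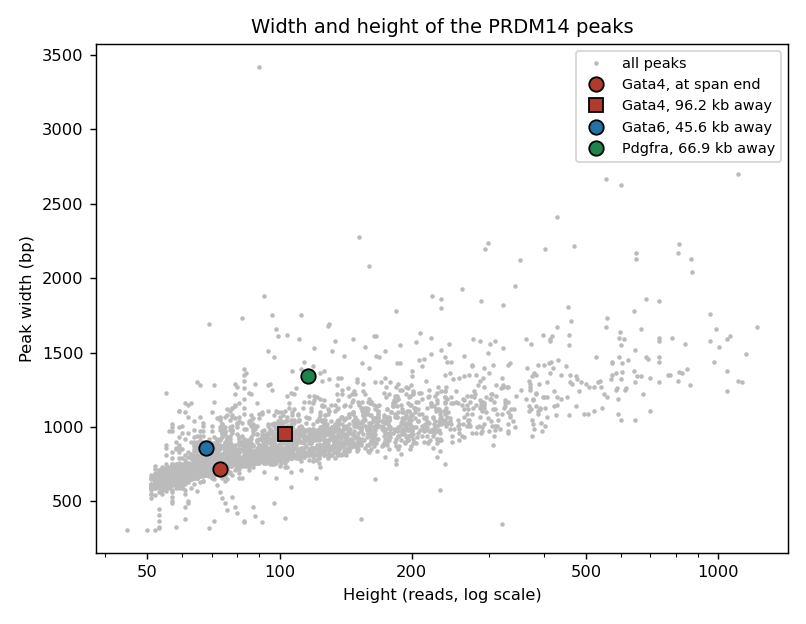
Peak width in bp against height in reads (log scale) for all 3608 PRDM14 peaks, in grey, and the 4 peaks near Gata4, Gata6 and Pdgfra, in colour. The Pdgfra peak (116 reads, 1339 bp) stands above most peaks of its height, and the Gata4 peak at the end of the gene span (73 reads, 719 bp) lies among the narrower ones.

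Peaks within 100 kb were compared with the background of the list by counting peak positions on a fixed grid of windows as long as the widest of the 3 gene windows, 248 kb. Of 10536 such windows, 2455 (23.3%) held at least 1 peak and 752 (7.14%) held at least 2. Each of the 3 gene windows held at least 1, and that of Gata4 held 2. The share with at least 1 peak was 17.8% on chromosome 14, 24.9% on chromosome 18 and 28.9% on chromosome 5. The grid also covers stretches without genes or without mappable sequence, and windows around other genes could not be placed. The 3 genes were chosen with results of these data known, so the count is a description and was not tested.

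**Figure D4:**
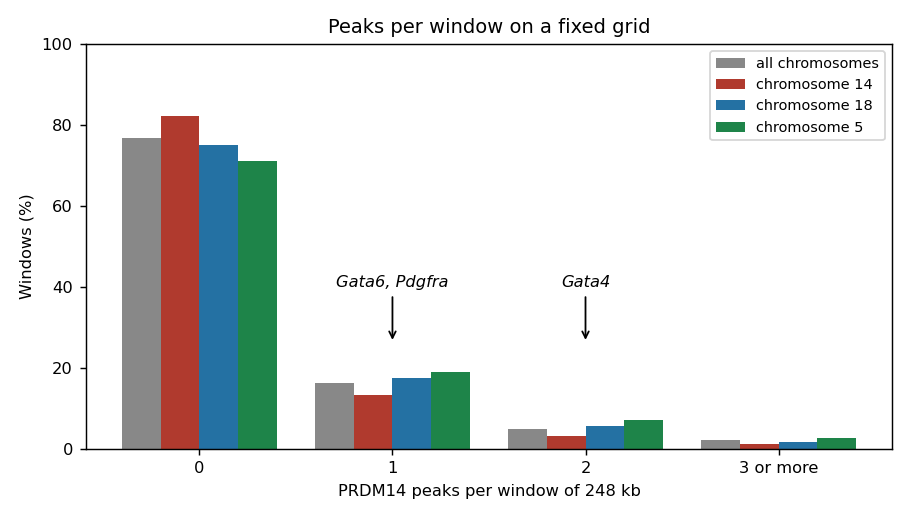
Share of windows of 248 kb (in %) by the number of PRDM14 peaks they hold, for all chromosomes (grey) and for chromosomes 14, 18 and 5 (colours). Arrows mark the class of each gene's own window: Gata6 and Pdgfra with 1 peak, Gata4 with 2. Most windows hold no peak, and 23.3% of all windows hold at least 1.

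The distance to the nearest peak can be read in the same way. Among spans of 48 kb laid at every 10 kb along the chromosomes, 5.73% contained a peak position and 5.94% had one inside or within 1 kb, the precision of the Gata4 span. Among spans of 34 kb, 13.4% had a peak as near as that of Gata6, and among spans of 47 kb, 18.1% had one as near as that of Pdgfra. The median distance of such spans to the nearest peak was 357.7 kb for the length of Gata4, 364.9 kb for that of Gata6 and 358.3 kb for that of Pdgfra. On the genes' own chromosomes the shares were 4.20% for Gata4, 14.2% for Gata6 and 22.2% for Pdgfra.

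The median height of the 4 peaks was 88 reads against 83 reads for all peaks, and 2 of the 4 were at or above the list median. In enrichment 1 of the 4, the Gata4 peak at the gene end, was at or above the median of the list, and the median of the 4 was 50.2 against 55.8. The single values lay apart, however: the Gata6 peak (25.6) was below the first quartile of the list, 32.1, and the Gata4 peak at the gene end (89.0) above the third, 86.8. In width 3 of the 4 were at or above the list median, with a median of 904 bp against 809 bp. The tallest of the 4 exceeded the lowest by a factor of 1.71 in height, and the most enriched exceeded the least by a factor of 3.48 in enrichment.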

How the data were processed

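The files deposited for the GFP library of cells rescued with PRDM14 were used: a table of 3608 peaks and a BED list with the same 3608 intervals. Positions are on mm9, per the submitters' processing notes. For the caller, aligner, control and depth, the sources used here give no information. Per the file headers, the authors give for each peak an enrichment, treated as a ratio, and a maximum of the immunoprecipitation, a whole-number pileup signal. The deposited flag, a score of 3 in every peak, was not used. The list does not say whether positions count from 0 or 1.

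Gene spans came with the rule for the members. The members and lists were chosen with earlier results of these data known. Every peak within 100 kb of a span is named, and the nearest peaks outside are given. The factor of a chromosome is its largest quotient of enrichment and height. A strand was at hand for Pdgfra alone, from a promoter annotation. Other primitive endoderm genes were listed for counting by the same rule but were not placed. The RefSeq tables at hand are on GRCm38 and gave gene order and length only. Peak sequences are not shown for the same reason. Ranks and percentages are over all 3608 peaks unless another base is named beside them. No test was made, since there was 1 library. Procedures were tested on simulated data. Python 3.11.15, NumPy 2.4.6, pandas 2.3.3, SciPy 1.17.1 and matplotlib 3.10.9 were used. Alternatives were other windows (10, 50 and 200 kb), stricter thresholds, merging of peaks closer than 1 kb, other placement of peaks, other ranks and other grids.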

Additional observations from a re-analysis of the deposited data

How the results depend on the processing

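The count of 4 peaks depended on the window and the threshold. It was 1 within 10 kb (Gata4), 2 within 50 kb (Gata4 and Gata6) and 6 within 200 kb, where Pdgfra had 3. On grids of windows as long as the widest of these, 7.81%, 15.3% and 36.1% of windows held a peak. With peaks below the list's median enrichment left out it was 1, and with those below the median height left out it was 2. It remained 4 when peaks were placed by interval, merged within 1 kb or taken from the BED list by midpoint. The median height moved from 88 reads to 70.5 within 50 kb, 100 within 200 kb and 103 for the tallest peak of each gene. The median width of 904 bp became 789 bp within 50 kb and 949 bp for the tallest peaks, and the median enrichment of 50.2 became 57.3 and 46.3. The share of windows with a peak was 23.3% on the grid from base 1, also when shifted by part of a window, and 24.1% from the first peak, which was added after seeing the data, as was the distance to the interval edge (at most 0.704 kb shorter). Leaving out replicates was not possible with 1 library. No paired analysis was possible because there was only 1 library a group. Read depth was not known, so the precision of single peaks was not measured.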

Other observations

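Within their own chromosomes the peaks near primitive endoderm genes kept similar places. The Gata4 peak at the gene end was at rank 24 of 122 by enrichment and at rank 74 by height on chromosome 14, and the distal Gata4 peak at ranks 69 and 44. The Gata6 peak was at rank 103 of 124 by enrichment and at rank 81 by height on chromosome 18. The Pdgfra peak was at rank 147 of 276 by enrichment and at rank 75 by height on chromosome 5, and at rank 15 by width.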
